A study of Homo sapiens with 8 samples.

Results

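The YAP/TAZ target genes described here are CCN1, CCN2, ANKRD1, AJUBA, AMOTL2, AXL, CRIM1, PTPN14 and TGFB2. They were chosen by symbol, and all 9 were found among the 13730 genes of the deposited table. RNA-seq was run on LN229-TAZ(4SA), a line derived from LN229 human glioblastoma cells and named for a TAZ(4SA) construct that every group carried. The 4 groups were TrxR1 knockout (KO) cells in glucose-deprived medium, control cells labelled EV in glucose-deprived medium, KO cells in regular medium and EV cells in regular medium, with 2 libraries each, called a and b here. TrxR1 is the cytosolic thioredoxin reductase encoded by TXNRD1, and the study asked how its loss and the lack of glucose act together on these cells. The number of knockout clones, the time without glucose and the source of each library (its own culture or a shared one) are not in the labels, so the spread behind each p-value may be technical. Since no group lacked TAZ(4SA), the dependence of any gene on TAZ cannot be read from these data.

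YAP and TAZ are transcriptional coactivators that bind no DNA themselves and act mainly through the TEAD factors. The Hippo kinases LATS1 and LATS2 phosphorylate them on serines and keep them out of the nucleus, and 4SA forms of TAZ carry alanines in place of such serines. Their targets include secreted matrix proteins, growth factor receptors and ligands, cytoskeletal adaptors, and proteins that restrain YAP and TAZ in turn. In glioblastoma, TAZ is known for its link to the mesenchymal state.

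The table holds log2 CPM, counts per library size on a log scale. Whole reads recovered from its values summed to 70083018 to 107229069 per library. TXNRD1 was at 370 and 351 CPM in KO glucose-deprived libraries, 509 and 493 CPM in EV glucose-deprived, 245 and 249 CPM in KO regular, and 263 and 261 CPM in EV regular libraries. A total mRNA level does not test a knockout label, because edited transcripts can still be counted. The headers of the libraries read as glucose-deprived end in GlcN, a term absent from the labels, and the same letters also abbreviate glucosamine, which would make these libraries another treatment. TXNIP, which glucose induces, was at 8.43 to 11 CPM in those 4 libraries, against 77.3 to 87.1 CPM in the 4 regular ones. All 8 glioma and glial markers were in the table, summing to 4908 to 5286 CPM per library, with GFAP at 0.675 to 1.41 CPM. That sum is carried by VIM and CD44, and single markers moved with the medium: SOX2 fell to 0.392 times its regular level in KO and 0.305 times in EV cells, NES fell to 0.512 and 0.49 times, and OLIG2 rose 2.5-fold and 2.37-fold. In regular medium, 2 of the 7 markers tested were lower in KO than in EV cells and 1 was higher. Over all tested genes 7.25% were called there. SOX2 (0.702 times, limma adjusted p = 1.3e-04) and S100B (0.726 times, adjusted p = 0.0011) were lower, and EGFR was higher (1.22-fold, adjusted p = 9.7e-04). In glucose-deprived medium 3 of the 7 were lower in KO than in EV cells and 2 higher, where 19.6% of all tested genes were called. Among them were S100B (0.757 times) and SOX2 (0.903 times), both lower, and NES (1.13-fold). The SOX2 and NES calls were lost with at least 1 library left out. Of 6 fibroblast markers 5 were present, summing to 37.5 to 54.8 CPM, no endothelial marker was (0 of 4), and CD14 alone represented the 4 leukocyte markers, at 0.253 to 1.17 CPM. Of these 5 deprivation raised 4 in KO and 3 in EV cells and lowered 0, beside 73.3% and 76.2% of all tested genes called. LUM rose 1.57-fold in KO and 1.62-fold in EV cells, and DCN, at 0.878 to 1.69 CPM, 1.59-fold and 1.58-fold. COL3A1 in KO cells (0.909 times) and PDGFRA in EV cells (0.97 times) were not called. In regular medium 3 of the 5, COL1A1, LUM and PDGFRA, were lower in KO than in EV cells and 0 higher. Each of these 3 calls was lost with at least 1 library left out. In glucose-deprived medium COL3A1 (0.601 times), LUM (0.793 times) and COL1A1 (0.828 times) were lower in KO than in EV cells and 0 higher. There too the COL3A1 and LUM calls were lost with at least 1 library left out. The part of these marker shifts in the results on the 9 targets was not tested.

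The promoters of the targets are shown first because TEAD factors are known to bind the letters GGAATG, or CATTCC on the other strand. RefSeq windows of 250 bases before a start (GRCh38.p14) were at hand for 7 of the 9 genes, all except CCN1 and CRIM1. The motif was in 7 of these 7 genes and in 7 of their 10 windows, whereas it was in 14.3% of all 27305 genes and in 11.9% of all 35116 windows. In AMOTL2, AJUBA and AXL it lay only in the window of a second, internal start, which in AMOTL2 and AJUBA overlaps exon sequence. The genes were picked as known targets, so the share describes the choice, and a match is not a measured binding site. The 4 stretches below, read 5′ to 3′ on the gene's strand without untranslated bases, carry the motif in capitals.
CCN2, chr6:131951374-131951622 (-), 3 motifs: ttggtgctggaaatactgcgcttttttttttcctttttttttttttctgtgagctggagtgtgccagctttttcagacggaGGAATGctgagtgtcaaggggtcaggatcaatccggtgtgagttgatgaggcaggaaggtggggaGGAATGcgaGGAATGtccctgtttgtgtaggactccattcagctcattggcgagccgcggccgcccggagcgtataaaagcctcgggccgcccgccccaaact
ANKRD1, chr10:90921277-90921337 (-), 1 motif: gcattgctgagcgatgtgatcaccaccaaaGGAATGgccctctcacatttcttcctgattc
TGFB2, chr1:218345086-218345335 (+), 1 motif: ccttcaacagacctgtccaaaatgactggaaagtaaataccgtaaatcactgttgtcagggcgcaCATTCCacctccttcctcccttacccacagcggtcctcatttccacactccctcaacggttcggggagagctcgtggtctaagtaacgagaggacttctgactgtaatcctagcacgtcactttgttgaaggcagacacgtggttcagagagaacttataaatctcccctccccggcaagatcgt
PTPN14, chr1:214551603-214551852 (-), 1 motif: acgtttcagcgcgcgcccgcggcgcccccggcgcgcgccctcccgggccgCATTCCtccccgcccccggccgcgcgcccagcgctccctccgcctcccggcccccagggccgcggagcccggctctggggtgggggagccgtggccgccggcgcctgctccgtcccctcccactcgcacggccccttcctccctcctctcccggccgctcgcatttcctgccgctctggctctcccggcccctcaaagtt
CCN2 held its motifs at -169, -104 and -95 bases from the start, the last pair close together. ANKRD1 held a second motif at -128, within its untranslated first exon and therefore not printed. The TGFB2 stretch, with its motif at -185, overlaps an exon of the antisense gene TGFB2-AS1, and the PTPN14 stretch, with its motif at -200, lies inside the gene as GENCODE annotates it. The TGFB2 position counts from the RefSeq start. GENCODE begins TGFB2 further downstream, at 218346235. The AP-1 motif TGANTCA was in the window of ANKRD1 only, 1 of the 7 genes, against 8.06% of all genes. The CArG box bound by SRF was in 0 of the 7, against 1.44% of all genes, which says only that it is not in these windows.

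Levels were compared between genes per kilobase of exon. AXL stood highest, at 158 CPM per kb in KO glucose-deprived, 167 in EV glucose-deprived, 200 in KO regular and 185 in EV regular cells. CCN1 came next, at 56.4 to 75.7 CPM per kb over the group means. CCN2 (29 to 55.1), CRIM1 (23.6 to 47.4) and AMOTL2 (20.4 to 35.7) followed, all in CPM per kb. AJUBA and PTPN14 changed places with the medium: AJUBA was at 10.7 and 9.27 CPM per kb in deprived KO and EV cells, below PTPN14 at 13.7 and 15.8, and at 23 and 20.8 in regular KO and EV cells, above PTPN14 at 13.5 and 13.7. TGFB2 (2.49 to 4.2) and ANKRD1 (1.05 to 1.84 CPM per kb) were the lowest. All 9 genes passed the filter on low values, with at least 145 reads (ANKRD1) in every library.

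**Figure D1:**
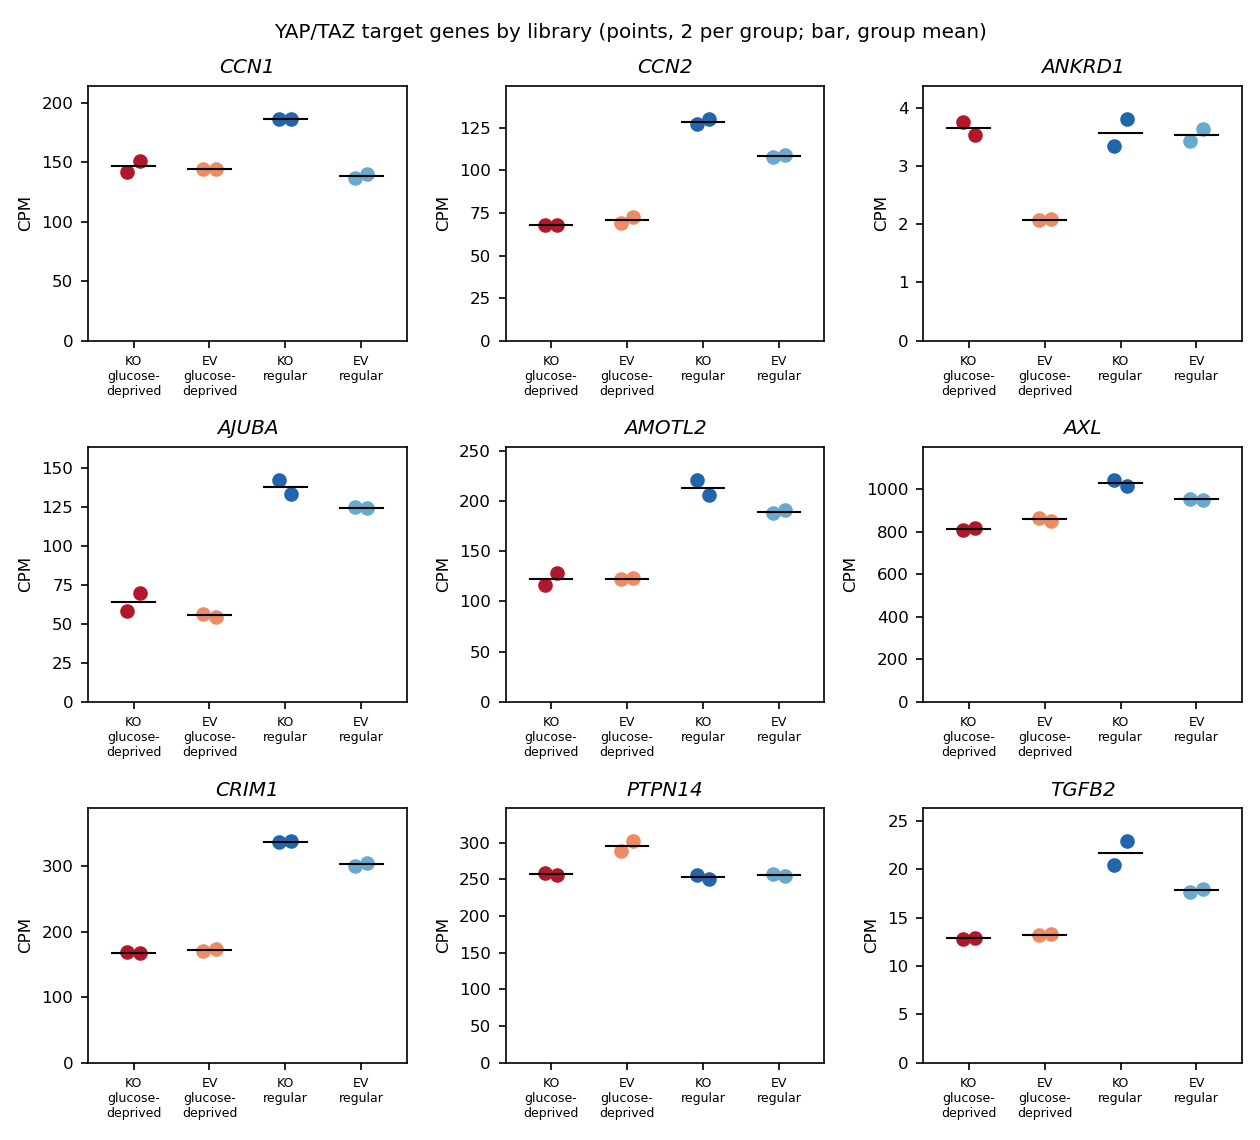
Level of each YAP/TAZ target gene in CPM (vertical axis from 0, its own scale in each panel) in the 2 libraries of each group, with the group mean as a bar. Glucose-deprived libraries lie below regular ones for CCN2, AJUBA, AMOTL2, AXL, CRIM1 and TGFB2, CCN1 stands out in KO regular cells at 186 CPM, ANKRD1 is low in EV glucose-deprived cells alone, and PTPN14 is high there.

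The secreted members were CCN1, CCN2 and TGFB2. CCN1 (chromosome 1, 85580761 to 85583962) encodes a matrix-associated protein that binds integrins and was formerly called CYR61. It had 142 and 151 CPM in KO glucose-deprived libraries, 144 and 144 CPM in EV glucose-deprived, 186 and 186 CPM in KO regular, and 137 and 140 CPM in EV regular libraries. The KO regular libraries stood above the other 6, and the deprived KO and EV libraries overlapped. In KO cells CCN1 fell in glucose-deprived medium, to 0.79 times its regular level (log2 -0.34 ± 0.037 (SE), limma adjusted p = 1.0e-05). In EV cells the same difference was 0.06 (95% CI -0.02 to 0.14, adjusted p = 0.18). Less RNA in every cell and fewer cells making it cannot be told apart in such bulk libraries.

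CCN2 (chromosome 6, 131948176 to 131951373), formerly CTGF, is the related fibrosis-associated matrix protein whose promoter held 3 motifs. Its level was 67.8 and 68 CPM in KO glucose-deprived libraries, 69 and 72.6 CPM in EV glucose-deprived, 127 and 130 CPM in KO regular, and 108 and 109 CPM in EV regular libraries. No groups overlapped, and the order of the means was KO regular, EV regular, EV deprived and KO deprived. Deprivation lowered CCN2 by a log2 change of -0.92 ± 0.037 in KO cells (adjusted p = 6.3e-09) and -0.61 ± 0.037 in EV cells (adjusted p = 1.0e-07). The neighbours at the low end, KO and EV in deprived medium, did not pass the test (log2 -0.06, 95% CI -0.14 to 0.02, adjusted p = 0.28). Exons of an antisense gene, AL133346.1, overlap CCN2, and the library kit does not mark strand.

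TGFB2 (chromosome 1, 218346235 to 218444619) encodes the cytokine transforming growth factor beta 2, which was isolated from glioblastoma cells, among other sources, as a suppressor of T cells. It had 12.8 and 12.9 CPM in KO glucose-deprived libraries, 13.2 and 13.3 CPM in EV glucose-deprived, 20.4 and 22.9 CPM in KO regular, and 17.7 and 18 CPM in EV regular libraries. Its groups were ordered like those of CCN2, with the widest spread in KO regular cells. It fell with deprivation by log2 -0.75 ± 0.061 in KO cells (adjusted p = 1.2e-06) and -0.43 ± 0.061 in EV cells (adjusted p = 7.9e-05). These values rest on 928 to 2007 reads per library.

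The membrane proteins were AXL and CRIM1. AXL (chromosome 19, 41219203 to 41261766) is a receptor tyrosine kinase for the ligand GAS6, often raised in mesenchymal tumour cells. It was counted at 807 and 817 CPM in KO glucose-deprived libraries, 867 and 853 CPM in EV glucose-deprived, 1043 and 1017 CPM in KO regular, and 955 and 950 CPM in EV regular libraries. No groups overlapped, KO cells holding both the lowest and the highest libraries. AXL fell with deprivation by log2 -0.34 ± 0.03 in KO cells (adjusted p = 2.2e-06) and -0.15 ± 0.03 in EV cells (adjusted p = 0.0011). These were the smallest of the falls called in each cell type, level with that of CCN1 in KO cells.

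CRIM1 (chromosome 2, 36355926 to 36551135) encodes a transmembrane protein with cysteine-rich repeats that binds bone morphogenetic proteins. It had 169 and 167 CPM in KO glucose-deprived libraries, 170 and 174 CPM in EV glucose-deprived, 337 and 338 CPM in KO regular, and 300 and 305 CPM in EV regular libraries. In deprived KO cells the level was 0.499 times that of regular KO cells (log2 -1.0 ± 0.031, adjusted p = 9.9e-10), and in deprived EV cells 0.568 times that of regular EV cells (log2 -0.82 ± 0.031, adjusted p = 3.9e-09). Each of AXL and CRIM1 overlaps exons of 1 gene on the other strand.

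AMOTL2, AJUBA and PTPN14 act on the Hippo pathway itself. AMOTL2 (chromosome 3, 134355874 to 134375479), an angiomotin that binds YAP at junctions and promotes its phosphorylation, had 116 and 128 CPM in KO glucose-deprived libraries, 122 and 123 CPM in EV glucose-deprived, 221 and 206 CPM in KO regular, and 188 and 191 CPM in EV regular libraries. AJUBA (chromosome 14, 22971174 to 22982642), a LIM-domain protein that binds and inhibits LATS kinases, had 58.3 and 69.4 CPM in KO glucose-deprived libraries, 56.5 and 54.3 CPM in EV glucose-deprived, 142 and 133 CPM in KO regular, and 125 and 124 CPM in EV regular libraries. Both genes were far lower in all 4 deprived libraries than in any regular one. The deprived KO libraries of AMOTL2 straddled the EV ones, whereas those of AJUBA lay above them. AJUBA had the largest fall of the 9 in either cell type, log2 -1.11 ± 0.068 in KO cells (adjusted p = 1.4e-07) and -1.17 ± 0.068 in EV cells (adjusted p = 8.4e-08). AMOTL2 fell by log2 -0.81 ± 0.048 (adjusted p = 1.1e-07) in KO cells and -0.63 ± 0.048 (adjusted p = 6.4e-07) in EV cells.

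PTPN14 (chromosome 1, 214348696 to 214552449) encodes a phosphatase-family protein that binds YAP and holds it in the cytoplasm. Its level was 258 and 256 CPM in KO glucose-deprived libraries, 289 and 302 CPM in EV glucose-deprived, 256 and 251 CPM in KO regular, and 257 and 255 CPM in EV regular libraries. The EV glucose-deprived libraries stood above the other 6, which spanned 251 to 258 CPM. PTPN14 was the member that rose with deprivation, in EV cells (log2 0.21 ± 0.033, adjusted p = 1.9e-04), whereas in KO cells the difference was 0.02 (95% CI -0.05 to 0.09, adjusted p = 0.59). The pseudogene KRT18P12 overlaps it on the other strand.

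ANKRD1 (chromosome 10, 90912096 to 90921276) encodes a cardiac ankyrin repeat protein found in the nucleus and, in muscle, at titin. It had 3.76 and 3.53 CPM in KO glucose-deprived libraries, 2.07 and 2.08 CPM in EV glucose-deprived, 3.34 and 3.8 CPM in KO regular, and 3.43 and 3.64 CPM in EV regular libraries. The EV glucose-deprived libraries were the low ones, and the other 6 overlapped between 3.34 and 3.8 CPM. In EV cells ANKRD1 fell with deprivation, to 0.59 times its regular level (log2 -0.76 ± 0.1, adjusted p = 5.6e-05). In KO cells the difference was 0.03 (95% CI -0.2 to 0.26, adjusted p = 0.78). With 145 to 397 reads per library it was the least deeply counted member.

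Glucose-deprived medium thus lowered 7 of the 9 targets in KO cells (CCN1, CCN2, AJUBA, AMOTL2, AXL, CRIM1 and TGFB2) and raised 0 (also 0 at an unadjusted p under 0.05, limma). In EV cells it lowered 7 (CCN2, ANKRD1, AJUBA, AMOTL2, AXL, CRIM1 and TGFB2) and raised 1 (PTPN14). Change in this comparison was the common state of the transcriptome: 73.3% of the 13057 tested genes were called in KO cells (36.5% higher and 36.8% lower) and 76.2% in EV cells (37.5% higher and 38.7% lower). The share of members called is near those backgrounds, so their sizes and directions carry the description. The median over the 9 was log2 -0.75 in KO and -0.61 in EV cells, against -0.002 and -0.011 over all tested genes. In KO cells 1.46% of tested genes had a lower value than AJUBA, 2.14% than CRIM1, 2.8% than CCN2, 4.2% than AMOTL2 and 5.27% than TGFB2. In EV cells these shares were 2.01% for AJUBA, 5.89% for CRIM1, 11.3% for CCN2, 10.6% for AMOTL2, 19.6% for TGFB2 and 6.97% for ANKRD1. Not all called falls were so far out. The shares were 22.2% for CCN1 and 22% for AXL in KO cells, and 38.8% for AXL in EV cells. That last fall (log2 -0.15) lay between the quartiles of all tested genes, -0.33 and 0.35.

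**Figure D2:**
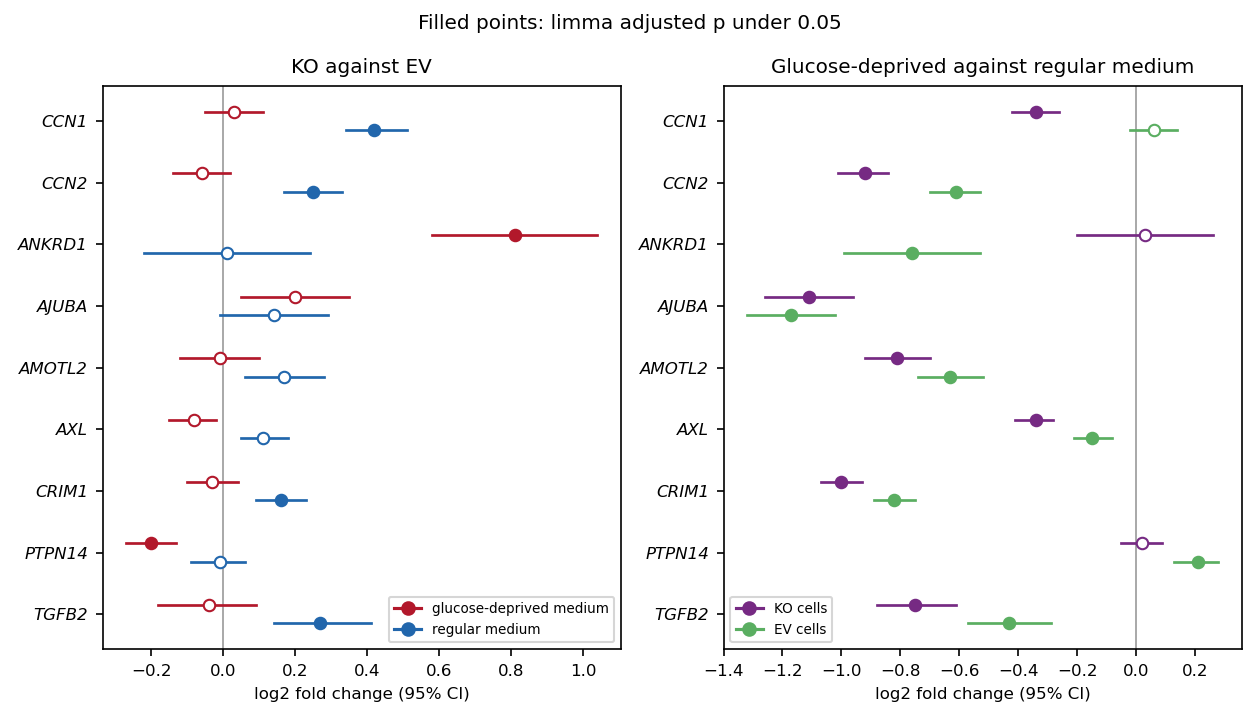
Log2 fold change of each target gene with its 95% CI (horizontal axis), KO against EV in each medium (left panel) and deprivation against regular medium within KO and EV cells (right panel); filled points passed limma's test at an adjusted p under 0.05. The right panel shows 7 filled points below 0 in each cell type, with AJUBA at -1.11 and -1.17, and the left panel shows 4 filled points above 0 in regular medium.

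In regular medium, 4 targets had higher CPM in KO than in EV cells, and no target had lower CPM (0 of 9 by limma, also at an unadjusted p under 0.05). CCN1 rose by log2 0.42 ± 0.037 (1.34-fold, adjusted p = 1.2e-04), CCN2 by 0.25 ± 0.037 (1.19-fold, adjusted p = 0.0034), TGFB2 by 0.27 ± 0.061 (1.21-fold, adjusted p = 0.025) and CRIM1 by 0.16 ± 0.031 (1.12-fold, adjusted p = 0.015). Over all tested genes 7.25% were called, 3.87% higher and 3.38% lower. The other targets were AMOTL2 at 0.17 (adjusted p = 0.061), AJUBA at 0.14 (adjusted p = 0.24), AXL at 0.11 (adjusted p = 0.051), ANKRD1 at 0.01 (adjusted p = 0.97) and PTPN14 at -0.01 (adjusted p = 0.84). The median over the 9 was 0.16, against -0.003 over all genes, and CCN1 exceeded 99.1% of tested genes, TGFB2 97.7% and CCN2 97.2%. The 4 higher genes were higher in both KO libraries than in both EV libraries. Without EV regular library a or b only CCN1 was called, with CCN2 at adjusted p = 0.062 and 0.051, CRIM1 at 0.19 and 0.12, and TGFB2 at 0.2 and 0.15, and TGFB2 also lost its call without KO regular library b (0.091) or either EV glucose-deprived library (0.052). Without the variance trend 2 were called, CCN1 and CCN2, and without either KO glucose-deprived library 7 were, AMOTL2, AJUBA and AXL being added.

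In glucose-deprived medium, KO and EV cells differed in 2 targets, in opposite directions. ANKRD1 was higher in KO cells, 1.75-fold (log2 0.81 ± 0.1, adjusted p = 6.9e-04), above 99.3% of tested genes, and PTPN14 was lower (log2 -0.20 ± 0.033, adjusted p = 0.003). The background of calls was 19.6%, with 9.04% higher and 10.6% lower, so 2 of 9 is near it. The genes raised in regular medium had intervals that held 0 here: 0.03 for CCN1 (-0.05 to 0.11), -0.06 for CCN2 (-0.14 to 0.02), -0.04 for TGFB2 (-0.18 to 0.09) and -0.03 for CRIM1 (-0.1 to 0.04). AJUBA was at 0.20 (adjusted p = 0.065), and passed the test without KO glucose-deprived library a, the lower of its pair (0.32, adjusted p = 0.0018). AXL was at -0.08 (adjusted p = 0.083) and AMOTL2 at -0.01 (adjusted p = 0.89).

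Whether deprivation acted differently in KO and EV cells was tested directly, as the effect in KO cells less that in EV cells. This difference passed the test for 5 of the 9 targets, against 4.31% of all tested genes (2.31% positive and 2.01% negative). It was negative for CCN1 (-0.40 ± 0.052, adjusted p = 0.0026), CCN2 (-0.31 ± 0.052, adjusted p = 0.0097), AXL (-0.20 ± 0.043, adjusted p = 0.034) and CRIM1 (-0.19 ± 0.044, adjusted p = 0.044). It was positive for ANKRD1 (0.80 ± 0.15, adjusted p = 0.016). For TGFB2 (-0.32, 95% CI -0.51 to -0.13, adjusted p = 0.067), PTPN14 (-0.19, -0.29 to -0.08, adjusted p = 0.053) and AMOTL2 (-0.18, -0.33 to -0.03, adjusted p = 0.14) it did not pass over all genes. AJUBA was at 0.06 (-0.16 to 0.27, adjusted p = 0.76). These tests use the same libraries as the 4 simple comparisons and are no separate evidence. Of the 5 calls that of CCN1 held under all 14 alternatives. ANKRD1 lost its call without any of the 4 EV libraries (adjusted p = 0.061 to 0.081), CCN2 without 3 of them (0.062 to 0.079), AXL without any EV library or KO regular library a (0.067 to 0.18), and CRIM1 without any EV library, KO glucose-deprived library b or KO regular library a (0.063 to 0.23). Without the variance trend CCN1 and ANKRD1 alone were called.

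**Figure D3:**
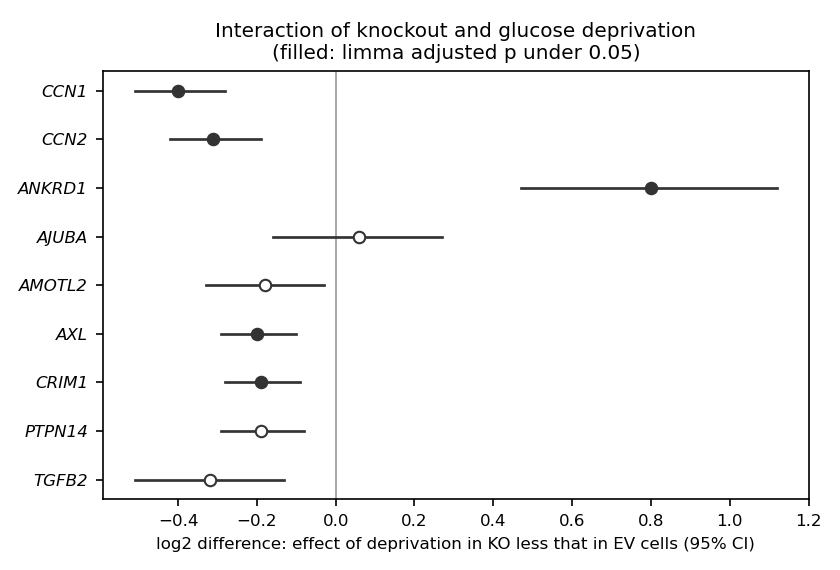
Effect of glucose deprivation in KO cells less that in EV cells for each target gene, as a log2 difference with its 95% CI (horizontal axis); filled points passed limma's test. CCN1, CCN2, AXL and CRIM1 lie below 0, between -0.40 and -0.19, and ANKRD1 lies at 0.80.

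The genes most like CCN1, CCN2 and ANKRD1 were those with the smallest root mean square difference of log2 CPM over the 8 libraries, each gene centred on its own mean. For CCN1 they were FOSL1 (0.065), EGFR (0.066) and RRP12 (0.083). FOSL1, an AP-1 subunit, averaged 639, 603, 752 and 616 CPM in KO deprived, EV deprived, KO regular and EV regular cells. For CCN2 they were ELOVL1 (0.044), TMEM45A (0.052) and BAK1 (0.054), with ELOVL1, a fatty acid elongase, at 82, 86.5, 151 and 131 CPM in the same order of groups. For ANKRD1 they were HSP90AA1 (0.069), MYLK2 (0.083) and HSPA4L (0.099). HSP90AA1, the inducible cytosolic HSP90 chaperone, averaged 3740, 2050, 3420 and 3230 CPM, lowest in EV deprived cells like ANKRD1.

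Other genes of the published pan-cancer YAP/TAZ signature did not move as a block. Of the 14 that are not among the 9, deprivation lowered 9 and raised 3 in KO cells, and lowered 9 and raised 4 in EV cells, with medians of -0.36 and -0.42. These 12 and 13 of 14 called stand beside 73.3% and 76.2% of all tested genes. FJX1, a secreted regulator of planar polarity, fell most, by log2 -1.23 ± 0.087 in KO (adjusted p = 4.0e-07) and -1.33 ± 0.087 in EV cells (adjusted p = 1.9e-07). IGFBP3, which binds insulin-like growth factors, had 51 and 39.3 CPM in KO deprived libraries, against 11.5 and 11.5 CPM in KO regular ones, and 68 and 52 CPM in EV deprived libraries, against 14.4 and 13.8 CPM in EV regular ones. It rose by log2 1.96 ± 0.13 in KO (adjusted p = 2.0e-07) and 2.08 ± 0.13 in EV cells (adjusted p = 1.2e-07). GADD45A, a stress-induced growth arrest gene, rose by log2 1.69 ± 0.089 in KO and 1.28 ± 0.089 in EV cells. IGFBP3 and GADD45A are both known as stress-responsive genes as well, and the cause of their rise was not tested.

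**Figure D4:**
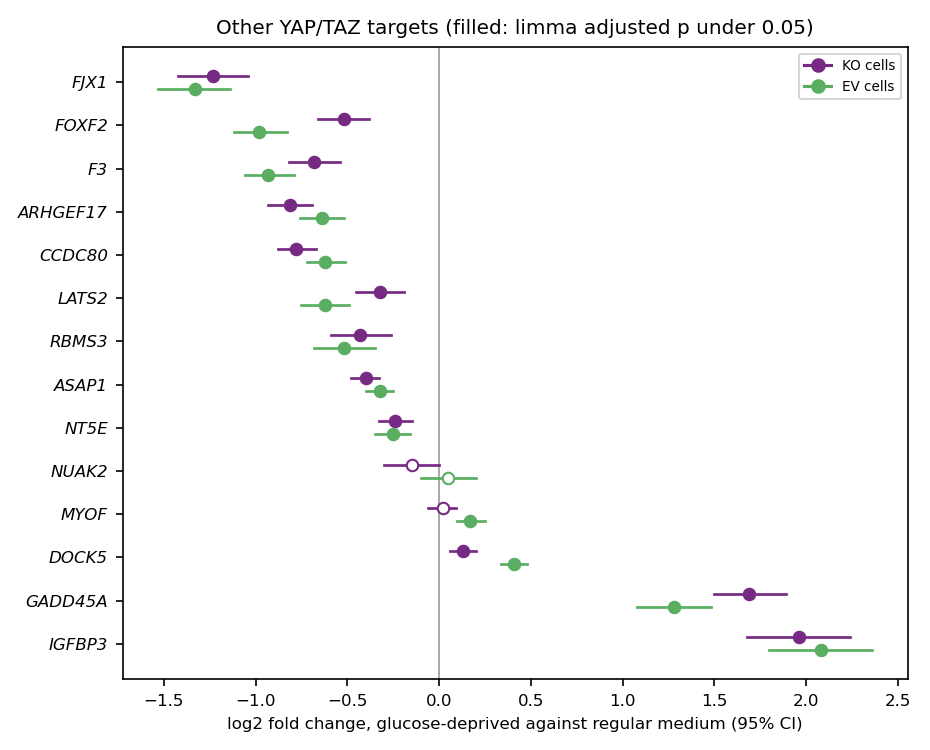
Log2 fold change of the 14 other signature genes, glucose-deprived against regular medium, in KO and EV cells with 95% CI (horizontal axis); filled points passed limma's test. The genes run from FJX1 at -1.23 and -1.33 to IGFBP3 at 1.96 and 2.08.

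Between KO and EV cells in regular medium, 3 of these 14 rose and 0 fell by limma (median 0.05), with 1 lower at an unadjusted p under 0.05. Over all tested genes 7.25% passed the adjusted test there. F3, tissue factor, was at 23.5 and 25.4 CPM in KO, against 19.4 and 17.7 CPM in EV libraries (log2 0.40 ± 0.061, adjusted p = 0.0045). ASAP1, which acts on ARF GTPases, rose by 0.21 ± 0.034 (adjusted p = 0.0057) and the kinase NUAK2 by 0.25 ± 0.066 (adjusted p = 0.046). The count was 1 without EV regular library a, where ASAP1 (adjusted p = 0.089) and NUAK2 were lost, and 0 without b, where F3 was at 0.071, and NUAK2 also lost its call without either KO regular library (0.057 to 0.26 over these). In glucose-deprived medium 5 rose and 3 fell in KO cells (median 0.04), where 19.6% of all tested genes were called (9.04% higher and 10.6% lower). The list was led by F3 at 15.1 and 15.4 CPM in KO, against 9.76 and 9.75 CPM in EV libraries (log2 0.64 ± 0.061, adjusted p = 1.1e-04). FOXF2, a forkhead factor, was at 0.49 ± 0.064 (adjusted p = 7.0e-04) and GADD45A at 0.44 ± 0.089 (adjusted p = 0.0077). The count was 5 without EV glucose-deprived library a or b, and GADD45A lost its call without b (0.066). The difference of the deprivation effects passed for FOXF2 (0.45 ± 0.09, adjusted p = 0.022) and DOCK5 (-0.28 ± 0.044, adjusted p = 0.0079), a guanine exchange factor for Rac, beside 4.31% of all tested genes. With 1 library left out, FOXF2 lost its call under 5 libraries and DOCK5 under 3.

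Of the Hippo pathway itself, the coactivator genes moved little. WWTR1, which encodes TAZ, had 309 and 306 CPM in KO glucose-deprived libraries, 324 and 342 CPM in EV glucose-deprived, 329 and 318 CPM in KO regular, and 362 and 361 CPM in EV regular libraries. Transcripts of the construct and of the cell's own gene cannot be told apart in this value. WWTR1 was lower in KO cells in regular medium (log2 -0.16 ± 0.035, adjusted p = 0.024) and in glucose-deprived medium (-0.11 ± 0.035, adjusted p = 0.049). The first call was lost without KO regular library b or either EV regular library (0.076 to 0.2), and the second without any of the deprived or EV regular libraries (0.064 to 0.34). With deprivation WWTR1 fell by -0.12 ± 0.035 in EV cells (adjusted p = 0.0093), a call lost with single libraries left out. In KO cells it was not called (-0.07, adjusted p = 0.081). YAP1 fell with deprivation by -0.17 ± 0.038 in KO and -0.26 ± 0.038 in EV cells and was not called between KO and EV cells (-0.01, adjusted p = 0.88, deprived, and -0.10, adjusted p = 0.14, regular). TEAD1, the most counted TEAD, was at 199 and 194 CPM in KO deprived libraries, 189 and 195 CPM in EV deprived, 252 and 259 CPM in KO regular, and 259 and 262 CPM in EV regular libraries.

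All 4 TEAD genes fell with deprivation in both cell types, by -0.38 (TEAD1) to -0.70 (TEAD4) in KO cells and -0.40 (TEAD2) to -0.87 (TEAD4) in EV cells. Over the 15 core genes deprivation lowered 11 and raised 2 in KO cells, and lowered 12 and raised 2 in EV cells, beside 73.3% and 76.2% of all tested genes called. NF2, the upstream tumour suppressor merlin, fell by -0.96 ± 0.044 in KO and -0.77 ± 0.044 in EV cells. KO against EV in regular medium lowered 2 of the 15, WWTR1 and VGLL4, a TEAD cofactor that competes with YAP (-0.30 ± 0.051, adjusted p = 0.0086), and raised 0, or 1 at an unadjusted p under 0.05. Over all tested genes 7.25% were called in that comparison. In glucose-deprived medium 2 rose, LATS2 (0.37 ± 0.058, adjusted p = 0.0023) and TEAD3 (0.20 ± 0.063, close to the threshold), and 1 fell, WWTR1. That count is near the 19.6% of all tested genes called there. LATS2 is also in the signature list above. The difference of the deprivation effects passed for 1 core gene, MOB1A (0.24 ± 0.057, adjusted p = 0.046), the LATS coactivator, beside 4.31% of all tested genes. The call of MOB1A was lost under 7 of the 14 alternatives (adjusted p = 0.075 to 0.2), that of TEAD3 under 8 (0.051 to 0.18), and that of VGLL4 without EV regular library a (0.12).

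Relatives and binding partners of the targets did not all follow them. Of 19 listed, 14 were in the table. CCN3, the relative of CCN1 and CCN2 known to oppose CCN2 in several tissues, had 55.8 and 55.9 CPM in KO glucose-deprived libraries, 59 and 57.1 CPM in EV glucose-deprived, 9.75 and 9.51 CPM in KO regular, and 10.4 and 10.2 CPM in EV regular libraries. It rose with deprivation by log2 2.53 ± 0.045 in KO cells (adjusted p = 1.8e-11) and 2.50 ± 0.045 in EV cells (adjusted p = 2.0e-11), while CCN2 fell. WTIP, a LIM protein of the AJUBA family, fell by -1.27 ± 0.083 and -1.50 ± 0.083, AMOT of the angiomotins by -0.71 ± 0.046 and -0.93 ± 0.046, and TYRO3, a receptor of the AXL family, by -0.89 ± 0.038 and -0.83 ± 0.038, each in KO and in EV cells. In all, 9 fell and 2 rose in KO cells, and 10 fell and 2 rose in EV cells, shares near the 73.3% and 76.2% of all tested genes called. Over all tested genes 7.25% were called between KO and EV cells in regular medium and 19.6% in glucose-deprived medium. Of the 14, 1 rose (TYRO3, 0.22 ± 0.038, adjusted p = 0.0089) and 1 fell (AMOT, -0.30 ± 0.046, adjusted p = 0.0042) in regular medium. In glucose-deprived medium 2 rose (WTIP and TYRO3) and 1 fell (AMOTL1), near that share. Each of these KO against EV calls was lost without at least 1 library. In regular medium TYRO3 lost its call without EV regular library a or b, and AMOT without EV regular library b. In deprived medium WTIP lost its call under 2 left-out libraries, TYRO3 under 3 and AMOTL1 under 5. EV glucose-deprived library a was among them for each of the last genes. The difference of the deprivation effects passed for 0 of the 14 by limma, with 3 positive and 1 negative at an unadjusted p under 0.05. Over all tested genes 4.31% passed the adjusted test.

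Targets of SRF and its MRTF cofactors, some of which respond to the same cytoskeletal cues as YAP and TAZ, were set beside the 9 genes. Of 12 tested, KO against EV raised 3 and lowered 0 (1 at an unadjusted p under 0.05) in regular medium, where 7.25% of all genes were called, and raised 1 and lowered 4 in glucose-deprived medium, where 19.6% were. The 3 regular-medium calls were each lost with 1 library left out, FHL2 (0.19 ± 0.038) under 3 libraries (adjusted p = 0.064 to 0.17), SRF under 5 (0.084 to 0.33) and ACTG1 under 6 (0.087 to 0.3), as were in deprived medium TAGLN (0.21 ± 0.06) under 5 (0.071 to 0.18) and SRF under 3 (0.051 to 0.11). SRF itself was at 72.7 and 68.2 CPM in KO, against 61.7 and 64 CPM in EV libraries in regular medium, and at 58.3 and 58.1 CPM in KO, against 65.5 and 66.2 CPM in EV libraries in glucose-deprived medium. Its difference of deprivation effects was -0.34 ± 0.059 (adjusted p = 0.011). ACTG1, a cytoplasmic actin, was likewise at -0.34 ± 0.043 (adjusted p = 0.0024) and the calponin CNN2 at -0.28 ± 0.051 (adjusted p = 0.015). Beside 4.31% of all tested genes, 4 of the 12 were negative and 0 positive past the test. SRF, ACTG1 and CNN2 are the 3 largest of those 4, and the calls of SRF and CNN2 were lost without either EV glucose-deprived library or EV regular library a (0.061 to 0.12). Deprivation lowered 9 of the 12 and raised 1 in KO cells, and lowered 8 and raised 1 in EV cells, beside 73.3% and 76.2% of all genes called. The tropomyosin TPM1 fell by -0.99 ± 0.031 in KO and -0.95 ± 0.031 in EV cells and the actin ACTB by -0.77 ± 0.043 and -0.68 ± 0.043, while FHL2, a LIM-domain cofactor, rose by 0.73 ± 0.038 and 0.96 ± 0.038.

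The 9 TGF-beta and SMAD targets were listed because TGFB2 is a ligand of that pathway. In glucose-deprived medium 4 rose and 1 fell in KO cells, where 19.6% of all genes were called, among the risers ID1 (0.57 ± 0.12, adjusted p = 0.0086) and SMAD7, an inhibitory SMAD (0.26 ± 0.048, adjusted p = 0.0053, lost without EV glucose-deprived library b at 0.064). ID1, an inhibitor of basic helix-loop-helix factors, fell with deprivation by -2.32 ± 0.12 in KO and -3.22 ± 0.12 in EV cells. The effects of deprivation on ID1 differed by 0.90 ± 0.17 (adjusted p = 0.017) and those on SKIL, a SMAD repressor, by 0.37 ± 0.072 (adjusted p = 0.02), and both calls were lost without any of the 4 EV libraries (0.051 to 0.11). The ID1 call between KO and EV cells in deprived medium was lost without EV glucose-deprived library a (0.067) or b (0.053). Deprivation lowered 5 and raised 2 of the 9 in KO cells, and lowered 7 and raised 2 in EV cells, beside 73.3% and 76.2% of all genes called.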

How the data were processed

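The authors deposited log2 CPM values for 13730 genes in 8 libraries. Per the labels' protocols, TRIzol was used for RNA and a SMART-Seq kit with Nextera XT, which mark no strand, for the libraries. HISAT2, edgeR and GRCh38 are named in the submitters' processing notes, without versions, and the annotation is not given in the sources used here. Taken off the log scale and less an offset of 0.023 CPM, 100% of the lower values were whole reads (tolerance 0.05). Higher values, among them those of most members, were left out of this check. CPM values are printed off the log scale and without the offset. Reads summed over the table were 70083018 to 107229069 per library, a lower bound of the depth. Libraries of a group differed by more than sampling noise (chi-square of 4.06 to 18.52 per gene), so none was counted as a duplicate.

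The test covered the 13057 genes whose log2 CPM averaged 0 or more, leaving out 673. A linear model of the 4 groups was fitted to the log2 values by limma (3.58.1, R 4.3.3), with a variance trend and 4 residual degrees of freedom. The two-sided p-values were corrected by the Benjamini-Hochberg method over all genes of a contrast, and a gene was called under 0.05. Errors are moderated standard errors. The fit was tested on simulated data with known changes in KO regular cells, for KO against EV in regular medium only. The other contrasts were not simulated. Alternatives were no variance trend, other filters, median-of-ratios scaling, log2(CPM + 1), voom weights on the recovered reads, and each library left out. Gene positions and exon lengths are from GENCODE release 29 on GRCh38, and promoter windows from RefSeq on GRCh38.p14, in which motifs were searched on both strands. The members and gene lists were chosen with earlier results of these data known. Beside the members, the genes named were taken from the up to 3 called genes of each list and contrast with the largest change (not all of them are printed), a fixed set (WWTR1, YAP1, the TEAD genes, TXNRD1, TXNIP and ARRDC4) and the most alike genes. 1 gene of the TGF-beta and SMAD list is not reported here.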

Additional observations from a re-analysis of the deposited data

Results flagged for a closer look

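For 5 targets the effect of glucose deprivation differed between KO and EV cells by a test of that difference (limma, adjusted over all genes). The log2 differences, KO effect less EV effect, were -0.40 for CCN1, -0.31 for CCN2, 0.80 for ANKRD1, -0.20 for AXL and -0.19 for CRIM1. The share of all tested genes past this test was 4.31%. In 4 of these genes, CCN1, CCN2, AXL and CRIM1, the KO regular libraries were the highest of the 8, and in ANKRD1 the EV glucose-deprived libraries were the lowest of the 8. No cause of these differences was tested.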

How the results depend on the processing

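No paired analysis was possible because the column headers carry no replicate numbers. Deprivation called 7 members in KO cells and 8 in EV cells under all 14 alternatives, and KO against EV in glucose-deprived medium called 2 or 3. In regular medium the count of 4 became 2 without the variance trend and ranged from 1 to 7 with 1 library left out. For the difference of the deprivation effects the count of 5 became 2 without the variance trend and ranged from 1 to 6 with 1 library left out. Counts over all tested genes fell as well without the trend, from 946 to 433 in regular medium. For the difference of effects they fell from 563 to 223. They also fell or rose with single libraries left out. The call of CCN1 held under all 14 alternatives in both of these comparisons. Calls lost by the other members are given beside their values. AXL gained a call in regular medium under both other filters, median-of-ratios scaling and voom weights (limma adjusted p = 0.036 to 0.049). The count there was then 5. PTPN14 gained one for the difference of effects with the filter at an average log2 CPM of 1 and with median-of-ratios scaling. That count was then 6. Over the other named genes, 1657 values kept their direction and their side of the threshold, 151 lost a call, 3 gained one and 5 changed sign. With 1 library left out, values that were not called changed sign, over these ranges: CCN1 (-0.016 to 0.071), AMOTL2 (-0.078 to 0.055) and YAP1 (-0.03 to 0.011) for KO against EV in glucose-deprived medium, ANKRD1 (-0.082 to 0.103, with -0.031 between), TEAD2 (-0.051 to 0.102), TEAD4 (-0.054 to 0.113) and ARRDC4 (-0.035 to 0.086, with -0.023 between) for KO against EV in regular medium, ANKRD1 (-0.059 to 0.126, with -0.012 between) for deprivation in KO cells, and AJUBA (-0.067 to 0.183) for the difference of effects. Among the 14 other signature genes, the count in glucose-deprived medium became 5 without the variance trend, from 8, and for the difference of effects 1, from 2. With 1 library left out these counts ranged from 0 to 3 in regular medium, from 5 to 7 in glucose-deprived medium and from 0 to 5 for the difference of effects. The cause was not tested. Median-of-ratios scaling moved the median of all genes by at most 0.008 (log2). ANKRD1, with at least 145 reads per library, had the largest errors of the 9, and with log2(CPM + 1) its difference between KO and EV cells in glucose-deprived medium was 0.595, against 0.806.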
